A study of Mus musculus with 6 samples.

Results

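Translation initiation and elongation factors were followed in bone marrow cells cultured with and without midkine. The members were all genes whose symbol begins with Eif or Eef and a digit, without the eIF2 kinases (Eif2ak) and pseudogene symbols, which gave 60 of the 15443 genes in the table. Wild-type C57BL/6J mice gave the bone marrow cells, which were kept for 3 days in medium with FLT3LG, the cytokine that drives dendritic cell development, at 50 ng/ml. Control libraries (replicates 1, 2 and 4) had no other addition, and midkine libraries (replicates 3, 4 and 5) received recombinant human midkine, a heparin-binding growth factor, at 10 ng/ml for the same 3 days, so every library is from FLT3LG-treated cells. No sorting step, age or sex is given in the labels, and whether the replicates were different animals, cultures or RNA preparations is not stated. The p-values are thus measured against the scatter among 6 libraries, part or all of which may be technical. The comparison asked how midkine affected cells grown with FLT3LG.

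Initiation factors bring the small ribosomal subunit, the initiator tRNA and the mRNA together at a start codon. eIF1, eIF1A and eIF5 control which codon is accepted, eIF2 carries the initiator tRNA and is recharged by its exchange factor eIF2B, eIF3 is the many-subunit scaffold on the small subunit, and the eIF4 factors bind the mRNA cap and unwind the leader. Elongation factor eEF1 then delivers aminoacyl-tRNAs and eEF2 moves the ribosome along the mRNA. Initiation is throttled mainly by phosphorylation of eIF2 and by the eIF4E-binding proteins, which mTORC1 controls, and many elongation factor mRNAs start with a run of pyrimidines (a 5′ terminal oligopyrimidine, or TOP, tract) that ties their own translation to mTORC1. mRNA levels as measured here do not report that translational control.

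Libraries were 3′-end tags (QuantSeq), 1 fragment per transcript, so the values are normalized counts per gene that are not divided by transcript length. Depth ranged from 5985684 to 7233960 reads per library. Midkine 5 stood apart, its Pearson correlations with the others, over log2 values of all genes tested, being 0.921 to 0.941. Mitochondrial ribosomal RNA took 0.377% of its reads, against 4.12 to 6.16% in the other 5. The labels give RNA integrity only over all samples, not per library. Results are therefore given with and without midkine 5, and the part of RNA quality in them was not tested. Of the defining markers of the culture, summed counts of the 10 conventional dendritic cell genes were 9788 to 10534 in control and 8111 to 8896 in midkine libraries, those of 10 neutrophil genes 125313 to 139999 and 178035 to 188661, and those of 10 monocyte and macrophage genes 16235 to 17727 and 21133 to 23947. Of these sets, 6 neutrophil and 5 monocyte and macrophage genes lay above all controls in every midkine library, and 7 conventional dendritic cell genes and the monocyte gene Ccr2 below, where 15.5% of all genes lay above and 15.3% below. All listed genes of the 3 sets were present, and none was at 0 in any library. The sums mostly follow the genes with the most counts. These were Irf8 and H2-Aa (control means 5117 and 3536, the latter overlapping between the groups) and S100a8 and S100a9 (66659 and 39939). The median log2 fold change, midkine minus control, was −0.64 for the conventional dendritic cell, 0.35 for the neutrophil and 0.60 for the monocyte and macrophage genes. The sums in control and midkine libraries were 4855 to 5330.2 and 4146 to 4309.6 for 6 plasmacytoid dendritic cell genes, 964 to 1211 and 1749 to 2707 for 7 basophil, mast cell and eosinophil genes, 1035 to 1455 and 1163 to 2192 for 7 B cell genes, 70.8 to 107 and 142 to 205 for 5 erythroid genes, 1287 to 1632 and 815 to 1567 for 8 stromal and endothelial genes (1 at 0 in some library) and 48.1 to 61.1 and 40.8 to 78.3 for 4 T and NK cell genes (2 at 0 in some library). Of these, 4 basophil, mast cell and eosinophil genes, 3 B cell genes and 1 erythroid gene lay above all controls in every midkine library. Below all controls lay 2 plasmacytoid dendritic cell genes and 2 stromal and endothelial genes, and 0 T and NK cell genes lay apart. The basophil, B cell, erythroid and T and NK cell lists each named 8 genes, and the sums hold only those present. The part of these cell types in the values of the translation factors was not tested, and in bulk RNA fewer cells of a type and less RNA per cell cannot be told apart.

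Of the 60 translation factors, 59 had a mean of at least 5 normalized counts and entered the test. Eef1akmt3, a lysine methyltransferase of eEF1A, did not, with 6.15, 3.07 and 0 against 5.80, 0 and 0.908 normalized counts (controls 1, 2 and 4 against midkine 3, 4 and 5, the order used throughout). In the other 59, every library had a value above 0, and 21 had a mean of at least 1000. With all 6 libraries, limma called 0 members higher and 0 lower, as it called 0% of the 13543 genes tested in either direction (smallest adjusted p of a member 0.133). Adjusted p-values here and for single genes are from limma with Benjamini-Hochberg adjustment unless another tool is named, and fold changes are midkine minus control on the log2(normalized count + 1) scale. At an unadjusted p under 0.05 there were 3 members higher, against 10.4% of all genes, and 2 lower, against 9.3%. edgeR on whole reads called 0 members (smallest adjusted p 0.131), where it called 0.0443% of all genes higher and 0.0295% lower. DESeq2 called 2 members higher, Eif1 and Eif4ebp2, and 0 lower, against 3.97% and 1.95% of the genes to which it gave an adjusted p. The members' median log2 fold change was −0.018, and that of all genes −0.00404.

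The values of the members differed among the 3 midkine libraries. In midkine 3 and 4 together, 23 of the 59 lay below all 3 controls and 5 above them (39.0% and 8.47%), where 23.8% of all genes lay below and 23.8% above. In midkine 5, 32 members had their highest value of any library and 10 their lowest (54.2% and 16.9%), against 34.6% and 33.7% of all genes. Set against the mean of the controls, the median member was at −0.077 and −0.095 on the log2 scale in midkine 3 and 4 and at 0.20 in midkine 5, where the median of all genes was 0.0107. Of the 38 members that were lower in the mean of midkine 3 and 4, 22 were higher than the control mean in midkine 5. The same count over all genes is not given here, so this one only describes the members. With all 3 midkine libraries, 5 members lay above every control and 8 below (8.47% and 13.6%), shares under the 15.5% and 15.3% of all genes.

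**Figure D1:**
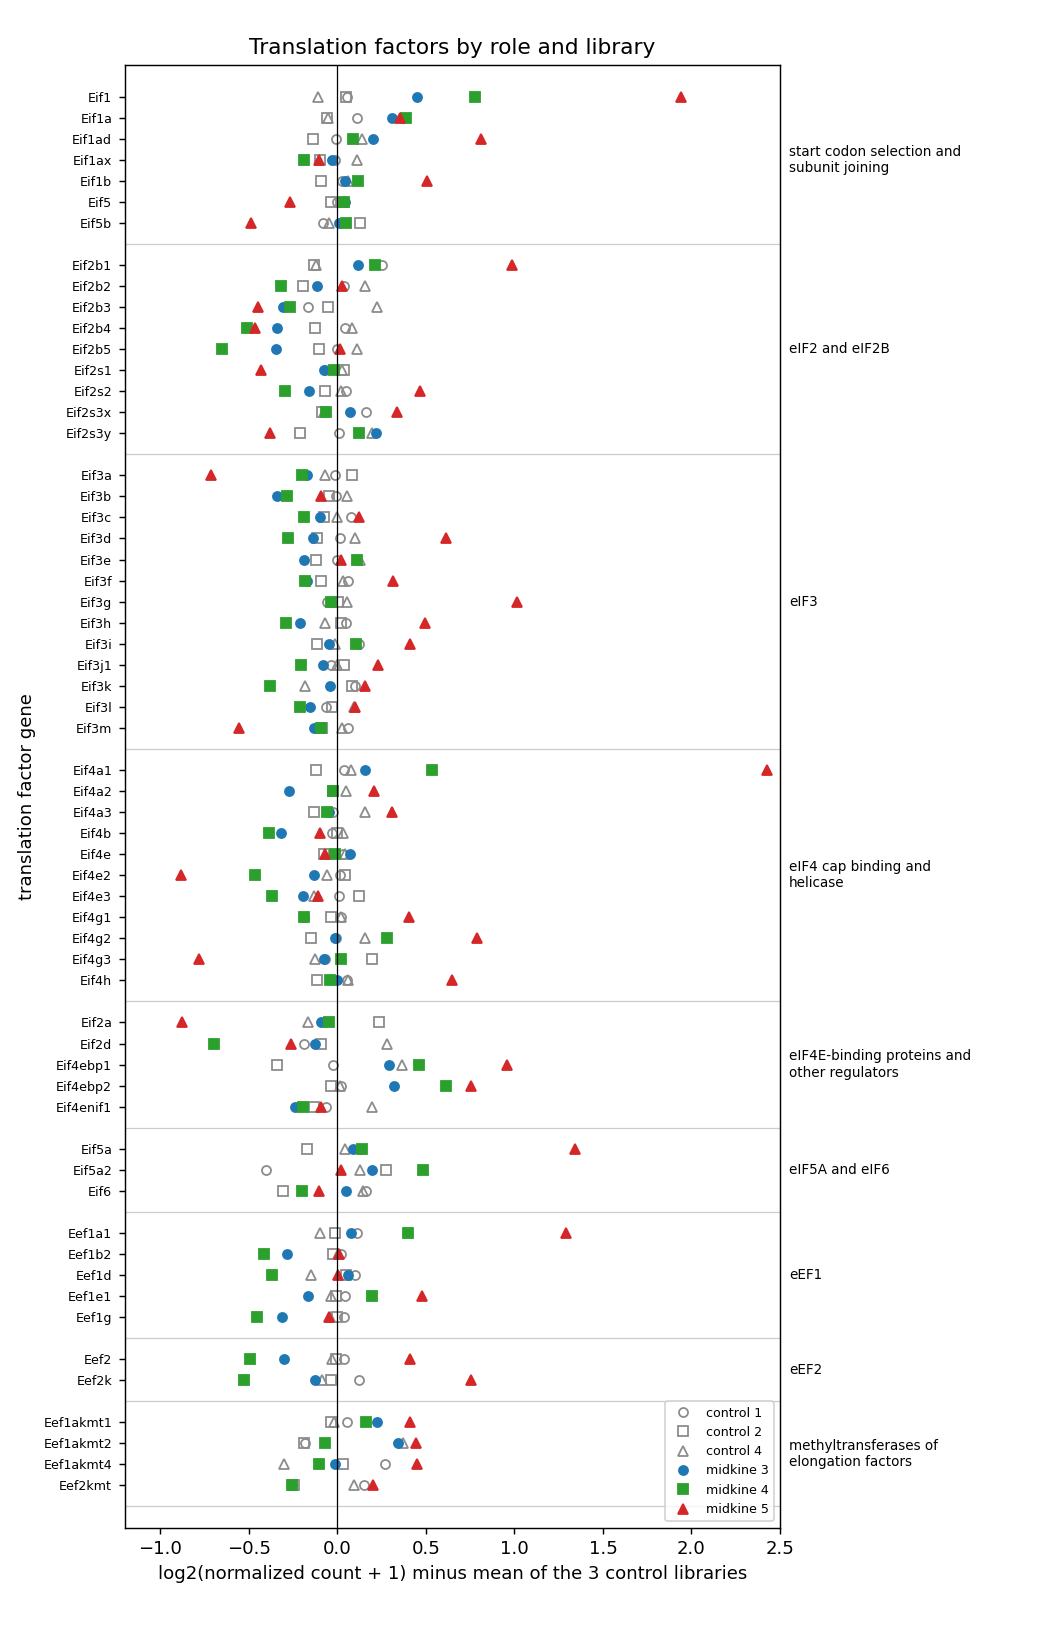
Each row is 1 of the 59 translation factors tested, grouped by role, and the horizontal axis is its log2(normalized count + 1) in each library minus the mean of the 3 controls (open grey symbols, controls; filled symbols, midkine 3, 4 and 5). The red triangles of midkine 5 lie farthest right for Eif4a1, Eif1, Eif5a and Eef1a1, while midkine 3 and 4 lie left of the controls for most eIF3 and eIF2B genes.

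Without midkine 5, limma called 11 members, 4 of them higher and 7 lower, against 9.92% and 8.52% of all genes (6.78% and 11.9% of members). edgeR on the same 5 libraries, added after the data were seen, called the same 11. The higher genes were Eif1, Eif1a, Eif4a1 and Eif4ebp2, and all 4 also lay above every control in midkine 5. The lower genes were Eef1b2, Eef1g and Eef2 of the elongation machinery, the eIF2B subunits Eif2b4 and Eif2b5, Eif3b and Eif4b. In midkine 5, 4 of these 7 (Eef1g, Eif2b4, Eif3b and Eif4b) lay below every control, 2 (Eef1b2 and Eif2b5) lay within the controls and Eef2 lay above them.

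**Figure D2:**
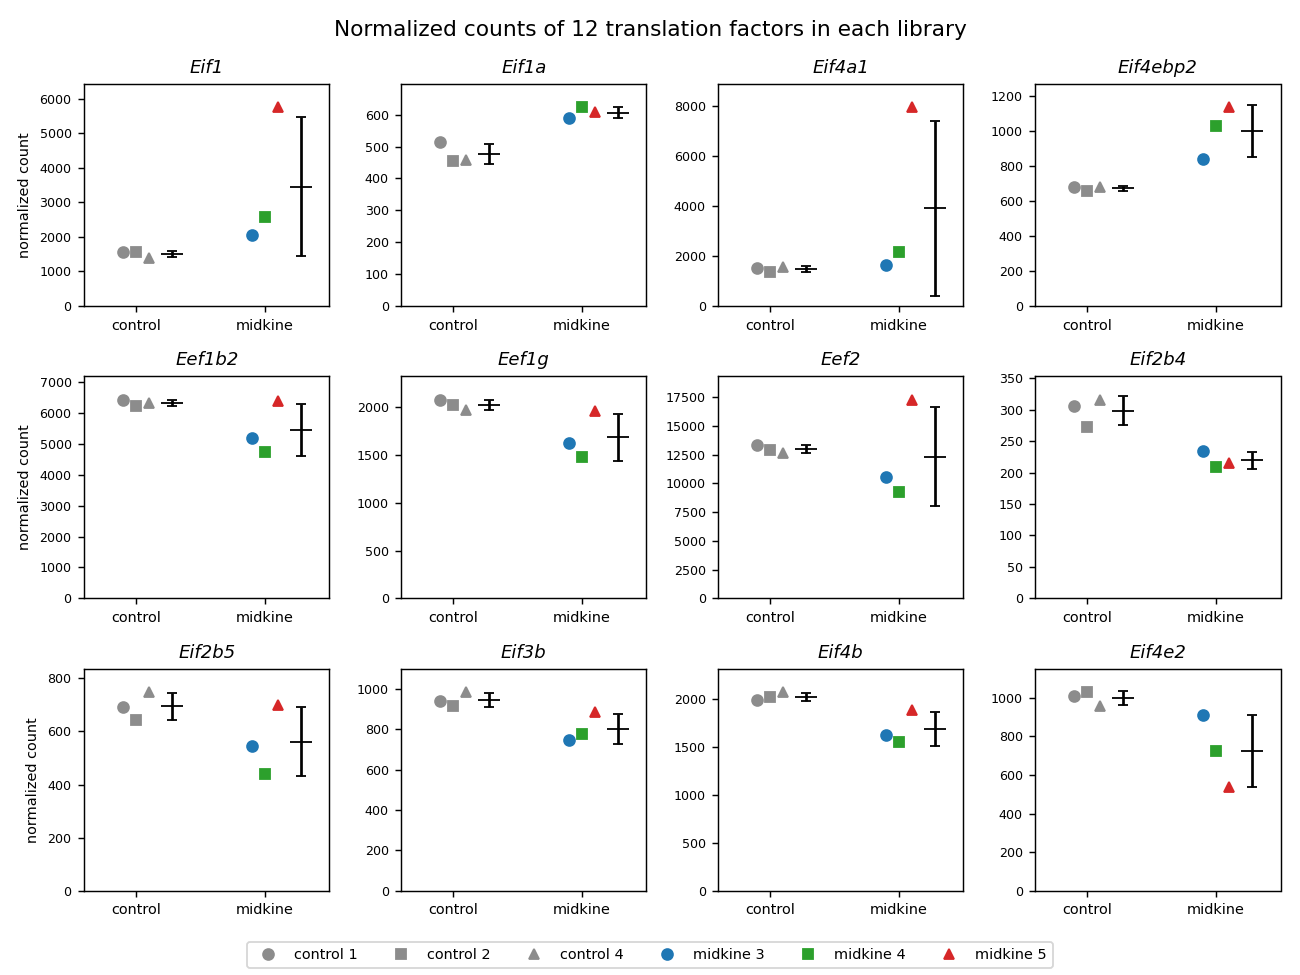
Normalized counts in each library of the 11 genes called without midkine 5 and of Eif4e2, with symbols for libraries and bars for the mean ± SD of 3 libraries per group; every axis starts at 0. Eif1, Eif1a, Eif4a1 and Eif4ebp2 lie higher in all 3 midkine libraries, and Eef2 is low in midkine 3 and 4 and highest in midkine 5.

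The start-site sequences of these genes are shown as a description. The genes were chosen by their calls and the window with the sequences in view, so whether higher and lower genes differ in them was not tested. Of the 60 members, 47 had a promoter in the RefSeq table (GRCm38.p6). Eif1a and Eef1g had none there and are not shown. The windows run from 30 bases before the annotated start to 30 bases after it, in the sense of the gene, and capitals mark a pyrimidine tract, that is, C followed by at least 6 letters that are C or T on the sense strand. The first 3 are from genes with higher values and the other 6 from genes with lower values in midkine 3 and 4.
Eif1 (chr11:100319919-100319978, + strand): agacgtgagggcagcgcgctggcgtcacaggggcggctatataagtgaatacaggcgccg
Eif4a1 (chr11:69672394-69672453, - strand): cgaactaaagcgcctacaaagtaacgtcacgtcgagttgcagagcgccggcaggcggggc
Eif4ebp2 (chr10:61452640-61452699, - strand): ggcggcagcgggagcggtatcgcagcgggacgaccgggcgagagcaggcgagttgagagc
Eef2 (chr10:81176601-81176660, + strand): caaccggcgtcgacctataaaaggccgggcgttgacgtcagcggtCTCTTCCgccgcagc
Eif2b5 (chr16:20498787-20498846, + strand): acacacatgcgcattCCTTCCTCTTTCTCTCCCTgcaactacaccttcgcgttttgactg
Eif4b (chr15:102073743-102073802, + strand): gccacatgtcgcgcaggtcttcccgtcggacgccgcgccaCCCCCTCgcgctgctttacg
Eef1b2 (chr1:63176801-63176860, + strand): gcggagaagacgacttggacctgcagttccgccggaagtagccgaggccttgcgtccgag
Eif2b4 (chr5:31193110-31193169, - strand): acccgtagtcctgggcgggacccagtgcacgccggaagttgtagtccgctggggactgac
Eif3b (chr5:140419275-140419334, + strand): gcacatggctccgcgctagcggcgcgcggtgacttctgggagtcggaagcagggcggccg
A tract lay in the windows of Eef2, Eif2b5 and Eif4b, and none in those of Eif1, Eif4a1 and Eif4ebp2, nor in those of Eef1b2, Eif2b4 and Eif3b. The annotated start may lie some bases from the one used in these cells. For Eif4ebp2 and Eif3b, the bases just after it were not found in any GENCODE transcript of the gene, so their windows are less certain. This check was passed by 50 of the 61 annotated starts of members. Over 1 or more starts per gene, 18 of the 47 members had a tract (38.3%). The share was 29.7% for the 27025 genes in the RefSeq table and 30.9% for those tested here. In the whole 300 bases, from 250 before to 50 after the start, the E-box CACGTG, the core bound by Myc and related factors, was present on either strand for 13 of the 47 (27.7%), against 8.09% of all genes in the table and 11.9% of those tested here. Eef2 and Eif4a1 both had it. Without midkine 5 these 2 genes were called in opposite directions, and in midkine 5 both lay above every control. The ETS-type motif CCGGAAG was present for 16 (34.0%, against 9.93% and 20.7%), among them Eef1b2, Eif2b4 and Eif4ebp2, and the CRE half-site TGACGT for 9 (19.1%, against 8.37% and 13.4%), among them Eif4a1, Eif4ebp2 and Eef2. The remaining motif looked for, GGGCGG, was present for 36 (76.6%, against 38.2% and 67.8%). These matches are descriptions of letters, not of factor binding.

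Among the factors of start codon selection and subunit joining, Eif1 and Eif1a had higher values in every midkine library. The median log2 fold change of the 7 genes was 0.22. Eif1, which makes the scanning ribosome reject poor start codons (chromosome 11, 100319885 to 100322096, plus strand, GRCm38), had 1559, 1550.4 and 1391 normalized counts in controls 1, 2 and 4 and 2047, 2570.4 and 5751 in midkine 3, 4 and 5. Midkine 5 was the highest library, and midkine 3 and 4 also lay above all controls. The test with all libraries gave a log2 fold change of 1.06 ± 0.341 SE, adjusted p = 0.169 (without midkine 5, 0.61, adjusted p = 0.000800). Eif1a, which works with eIF1 in scanning, had 513, 456 and 459 against 589, 623 and 608 normalized counts, with no overlap and with midkine 5 between midkine 3 and 4 (log2 fold change 0.35 ± 0.137 SE, adjusted p = 0.220; without midkine 5, 0.35, adjusted p = 0.0302). Its X-linked counterpart Eif1ax had 709, 668 and 773 against 701, 627 and 665, with overlapping groups.

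Eif1b, a close paralogue of Eif1, had 1085, 999 and 1111 against 1094, 1153 and 1512 normalized counts and overlapped, with its highest value in midkine 5. Eif5, the GTPase activator of eIF2, had 1875, 1828 and 1929 against 1937, 1924 and 1562. Eif5b, the GTPase that joins the large subunit, whose last 300 bases overlap Rev1 on the opposite strand, had 2724, 3142 and 2785 against 2892, 2976 and 2055. For both, midkine 3 and 4 lay within or next to the controls and midkine 5 was the lowest library. Eif1ad, named for its eIF1A-like domain, had 272, 249 and 301 against 314, 290.3 and 479, with overlapping groups.

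In the eIF2 and eIF2B group, 2 of 9 genes lay below the controls in all midkine libraries and 0 above (22.2% and 0%, against 15.3% and 15.5% of all genes), and the median log2 fold change was −0.13. Eif2b4, the delta subunit (chromosome 5, 31187558 to 31193430, minus strand), had 307, 272 and 316 normalized counts in controls 1, 2 and 4 and 235, 209 and 215 in midkine 3, 4 and 5, and its groups did not overlap (log2 fold change −0.44 ± 0.150 SE, adjusted p = 0.183; without midkine 5, −0.42, adjusted p = 0.0243). Eif2b5, the epsilon subunit that holds the exchange activity, had 691, 643 and 747 against 544, 441 and 699 (log2 fold change −0.33 ± 0.191 SE, adjusted p = 0.367; without midkine 5, −0.50, adjusted p = 0.00593). Midkine 3 and 4 were below all controls for Eif2b5, and midkine 5 was within them. Eif2b3, the gamma subunit, had 132, 143 and 174 against 119.9, 124 and 109, with no overlap but no call in either fit (log2 fold change −0.34 ± 0.175 SE, adjusted p = 0.319; without midkine 5, −0.29, adjusted p = 0.210). Eif2b1, the alpha subunit, had 56.4, 43.0 and 43.4 against 51.2, 54.9 and 94.4. Eif2b2, the beta subunit, had 730.3, 622 and 795 against 658, 571 and 725, and both genes overlapped between the groups.

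The subunits of eIF2 itself overlapped between the groups. Eif2s1, the alpha subunit that stress kinases phosphorylate, had 320.0, 345 and 342 against 318, 331 and 249 normalized counts, with the lowest value in midkine 5. Eif2s2, the beta subunit and the highest of the group, had 5207, 4809 and 5106 against 4506, 4112 and 6963, below all controls in midkine 3 and 4 and above them in midkine 5. The gamma subunit is encoded on both sex chromosomes in mice. Eif2s3x had 349.8, 294 and 296 against 328, 299 and 394. The Y-linked Eif2s3y was present in all 6 libraries, with 146, 125 and 166 against 168, 157 and 111. Xist, the RNA of the inactive X, had at most 8.17 normalized counts in any library.

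For eIF3, 9 of 13 subunit genes lay below all controls in both midkine 3 and 4, and 9 of 13 had their highest value in midkine 5 (69.2% in both cases, against 23.8% and 34.6% of all genes). The median log2 fold change was −0.0190, and the median relative to the controls was −0.14, −0.20 and 0.16 in midkine 3, 4 and 5. Eif3a, the largest subunit and the highest in counts, had 4239, 4523 and 4073 normalized counts in controls 1, 2 and 4 and 3799, 3725 and 2602 in midkine 3, 4 and 5. It was lower in all midkine libraries and lowest in midkine 5 (log2 fold change −0.36 ± 0.181 SE, adjusted p = 0.308; without midkine 5, −0.18, adjusted p = 0.207). Eif3b, which anchors the peripheral module with eIF3i and eIF3g, had 941, 913 and 982 against 746, 776 and 888 (log2 fold change −0.24 ± 0.140 SE, adjusted p = 0.370; without midkine 5, −0.31, adjusted p = 0.0342). Eif3m had 249, 225 and 244 against 218, 224 and 162, also without overlap (log2 fold change −0.26 ± 0.177 SE, adjusted p = 0.432). Without midkine 5, the fold change of Eif3m was −0.11 (adjusted p = 0.579). An exon of Ccdc73 on the opposite strand lies in the last 300 bases of the Eif3m gene, and without a stated strand setting their reads cannot be told apart.

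Most other subunits were highest in midkine 5. Eif3g had 401, 418 and 433 against 407, 407 and 845 normalized counts, with midkine 3 and 4 among the controls and midkine 5 far above. Eif3d, a subunit able to bind some mRNA caps, had 923, 844 and 979 against 830.4, 753 and 1399.6. Eif3h, an MPN-domain subunit, had 2591, 2531 and 2381 against 2158, 2044 and 3524, and Eif3f, the other MPN-domain subunit, 2109, 1899 and 2075 against 1802, 1783 and 2521. In Eif3d, Eif3h and Eif3f, midkine 3 and 4 were below and midkine 5 above all controls. The same order held for Eif3c (2366, 2127 and 2242 against 2093, 1969.8 and 2442), Eif3j1 (758, 799.7 and 777 against 735, 676 and 912) and Eif3l (527, 540.0 and 589.8 against 496, 477 and 592). Eif3e, Eif3i and Eif3k overlapped between the groups, with limma adjusted p from 0.613 for Eif3i to 0.956 for Eif3e.

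Among the cap-binding and helicase factors, the largest fold changes were those of Eif4a1 and Eif4e2, and the median of the 11 genes was −0.00290. Eif4a1, the main RNA helicase of initiation (chromosome 11, 69666936 to 69672423, minus strand), had 1519, 1361 and 1559 normalized counts in controls 1, 2 and 4 and 1644, 2144 and 7941 in midkine 3, 4 and 5. All midkine libraries lay above the controls, and midkine 5 was far above midkine 3 and 4 (log2 fold change 1.04 ± 0.507 SE, adjusted p = 0.297; without midkine 5, 0.35, adjusted p = 0.0433). Its paralogue Eif4a2 had 603, 602 and 636 against 508, 604 and 708, with overlapping groups, though the last 300 bases of Eif4a2 overlap an exon of Rfc4 on the opposite strand. Eif4a3, a core of the exon junction complex rather than an initiation factor, had 1127, 1047 and 1275 against 1109, 1099 and 1422. Eif4b, which stimulates the helicase, had 1982, 2021 and 2065 against 1620.2, 1549.7 and 1887, lower in every midkine library (log2 fold change −0.27 ± 0.141 SE, adjusted p = 0.326; without midkine 5, −0.35, adjusted p = 0.0144). Eif4h, a relative of eIF4B, had 866, 770.1 and 869.9 against 833, 809.7 and 1307.

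The cap-binding protein gene Eif4e had 763, 707 and 769 against 783, 740.0 and 712 normalized counts, with a log2 fold change of −0.00290 ± 0.134 SE. Eif4e2, which encodes a cap-binding protein that represses translation (4EHP), had 1009, 1028 and 959.6 against 909.7, 724 and 540.1. Its groups did not overlap and midkine 5 was the lowest (log2 fold change −0.49 ± 0.199 SE, adjusted p = 0.229; without midkine 5, −0.30, adjusted p = 0.0673). Eif4e3 had 346, 373 and 314 against 301, 266 and 318, with midkine 3 and 4 below all controls and midkine 5 among them. Of the scaffolds, Eif4g1 had 2442, 2347 and 2442 against 2118, 2115 and 3189. Eif4g2, which encodes DAP5, a scaffold that does not bind eIF4E, was the highest of the group with 5339.6, 4859 and 5992 against 5319.8, 6541 and 9300.1. Eif4g3 had 856, 1029 and 825 against 853, 912 and 523. In midkine 5, Eif4g1 and Eif4g2 had their highest values and Eif4g3 its lowest, and none of the 3 genes separated the groups.

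Of the 2 genes for eIF4E-binding proteins, Eif4ebp2 had higher values in every midkine library and Eif4ebp1 overlapped. Eif4ebp2 (chromosome 10, 61428491 to 61452661, minus strand) had 680.0, 655 and 679.5 normalized counts in controls 1, 2 and 4 and 837, 1028 and 1135 in midkine 3, 4 and 5, the smallest p of any member (log2 fold change 0.56 ± 0.157 SE, adjusted p = 0.133; without midkine 5, 0.47, adjusted p = 0.00597). Its 3 controls lay within 655 to 680.0, and the groups did not overlap. Eif4ebp1, the best known of the family, had 98.5, 78.7 and 129 against 123, 138 and 195, and midkine 3 lay below control 4 (log2 fold change 0.57 ± 0.251 SE, adjusted p = 0.258). Its fold change without midkine 5 was 0.38 (adjusted p = 0.176). Eif4enif1, the eIF4E transporter, had 321, 307 and 386 against 284, 293 and 315. Eif2a, an alternative carrier of initiator tRNA, had 325, 402 and 305 against 320.0, 330.4 and 185. Eif2d, another such carrier, had 57.4, 61.4 and 79.9 against 59.9, 40.1 and 54.5, and neither gene separated the groups.

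eIF5A, the hypusine-bearing factor that helps ribosomes through difficult peptide bonds, is encoded by Eif5a and the rare Eif5a2. Eif5a had 2271, 1851 and 2142 against 2213, 2292 and 5271 normalized counts, and midkine 5 alone was high (log2 fold change 0.52 ± 0.318 SE, adjusted p = 0.383; without midkine 5, 0.11, adjusted p = 0.489). Eif5a2 had 9.23, 15.3 and 13.8 against 14.5, 17.9 and 12.7. Eif6, which keeps the subunits apart, had 662, 479 and 653 against 611, 514 and 551, with overlapping groups.

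In the eEF1 group, the GTPase Eef1a1 had a fold change above 0, and the exchange subunits Eef1b2 and Eef1d and their partner Eef1g below 0. The median of the 5 genes was −0.10. Eef1a1 (chromosome 9, 78478449 to 78489151, minus strand), the member with the most counts, had 18223, 16689 and 15740.5 normalized counts in controls 1, 2 and 4 and 17811, 22263 and 41196 in midkine 3, 4 and 5. Midkine 3 lay within the controls, midkine 4 above them and midkine 5 far above (log2 fold change 0.59 ± 0.294 SE, adjusted p = 0.306; without midkine 5, 0.24, adjusted p = 0.202). Near-identical copies of Eef1a1 could share its reads, since the treatment of reads with several map positions is not given, and Gm26377 on the same strand overlaps the last 300 bases of the gene. Eef1b2, the nucleotide exchange subunit, had 6424, 6222 and 6334 against 5204, 4744 and 6375 (log2 fold change −0.23 ± 0.159 SE, adjusted p = 0.438; without midkine 5, −0.35, adjusted p = 0.0207). Eef1g, its partner, had 2075, 2022 and 1966 against 1626, 1476 and 1957, and its groups did not overlap, although midkine 5 lay close to control 4 (log2 fold change −0.27 ± 0.152 SE, adjusted p = 0.355; without midkine 5, −0.38, adjusted p = 0.00983). Eef1d, another exchange subunit, whose last 300 bases overlap Naprt on the same strand, had 1265, 1218 and 1065 against 1228, 912 and 1185. Eef1e1, a protein of the tRNA synthetase complex, had 61.5, 59.3 and 58.2 against 53.2, 68.6 and 83.5, and both overlapped.

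Eef2, the translocase of elongation (chromosome 10, 81176631 to 81182498, plus strand), had 13341, 12910.2 and 12688 normalized counts in controls 1, 2 and 4 and 10529, 9231 and 17271 in midkine 3, 4 and 5. Midkine 3 and 4 were below all controls and midkine 5 above them, so the fold change was −0.13 ± 0.237 SE with all libraries (adjusted p = 0.780); without midkine 5, −0.40, adjusted p = 0.0169. Eef2k, the kinase that inactivates eEF2, had 153, 137 and 132 against 129, 97.1 and 238 and ordered the libraries like Eef2. Of the lysine methyltransferases that modify elongation factors, Eef1akmt1 had 84.1, 78.7 and 79.9 against 94.7, 90.8 and 108, without overlap (log2 fold change 0.27 ± 0.171 SE, adjusted p = 0.405). Its fold change without midkine 5 was 0.20 (adjusted p = 0.452). Eef1akmt2 had 18.5, 18.4 and 27.6 against 27.1, 20.1 and 29.0, with overlap. Eef1akmt4 had 102, 85.9 and 68.1 against 83.1, 78.1 and 115 and Eef2kmt 107, 80.8 and 103 against 80.2, 80.2 and 111, also with overlap. All 4 had their highest value in midkine 5, against 34.6% of all genes. The last 300 bases of Eef2kmt overlap Alg1 on the opposite strand.

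**Figure D3:**
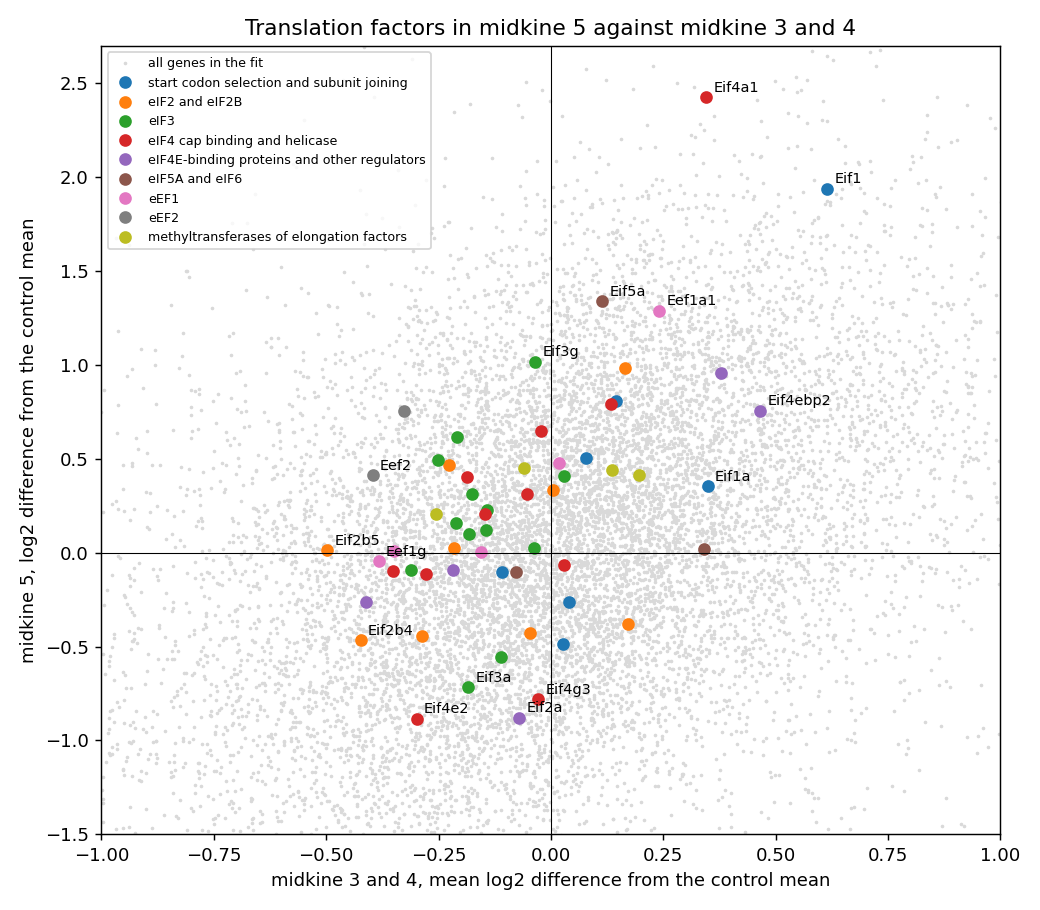
The log2 difference from the control mean in midkine 5 (vertical axis) against the mean difference in midkine 3 and 4 (horizontal axis), for the 59 translation factors coloured by role and for all genes tested in grey (1371 genes lie outside the axes). Both axes use the same controls. Eif4a1, Eif1 and Eif4ebp2 lie to the upper right, Eef2 and most eIF3 genes to the upper left, and Eif2b4 and Eif4e2 to the lower left.

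The 60 genes together took 1.59, 1.49 and 1.49% of reads in controls 1, 2 and 4 and 1.45, 1.46 and 2.22% in midkine 3, 4 and 5. Midkine 3 and 4 were below every control and midkine 5 was above them all (exact permutation test, two-sided, p = 1; 3 against 3 cannot go below 0.10). The Wilson 95% interval was 2.20 to 2.23% for midkine 5 and 1.44 to 1.46% for midkine 3, and covers counting error only. Without Eef1a1 the shares were 1.30, 1.22 and 1.24% and 1.16, 1.11 and 1.59%. The eIF3 genes took 0.293, 0.281 and 0.275% and 0.257, 0.241 and 0.290%, and the factors of start codon selection 0.142, 0.142 and 0.138% and 0.155, 0.159 and 0.192%. The latter shares did not overlap between the groups (exact permutation p = 0.10). Nor did those of the eIF4E-binding proteins and other regulators, at 0.0241, 0.0240 and 0.0250% and 0.0262, 0.0287 and 0.0287% (exact permutation p = 0.10). The remaining role groups had exact permutation p from 0.3 to 0.8, and no p was adjusted for the number of groups.

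Ratios between paired factors compare 2 genes within a library, so a scale factor between libraries bears little on them. Of 11 pairs compared, 5 did not overlap between the groups, each with an exact permutation p of 0.10, the smallest possible. After Benjamini-Hochberg adjustment over the 11 pairs, the exact permutation p was 0.220. No share for pairs of other genes was computed, and of all single genes 15.5% lay above and 15.3% below the controls. Eif4a1, Eif1, Eif1a and Eif4e2, which are in these pairs, also separated the groups as single genes, so their ratios partly restate those values. The log2 ratio of Eif4a1 to Eif4a2 was 1.33, 1.17 and 1.29 in the controls and 1.69, 1.83 and 3.49 in midkine 3, 4 and 5. That of Eif1 to Eif1b was 0.52, 0.63 and 0.32 in the controls and 0.90, 1.16 and 1.93 in midkine 3, 4 and 5. The ratio of Eif1a to Eif1ax was −0.47, −0.55 and −0.75 in the controls and −0.25, −0.0097 and −0.13 in midkine 3, 4 and 5, with no library of one group among the other. For Eif4e to Eif4e2 the values were −0.40, −0.54 and −0.32 in the controls and −0.22, 0.031 and 0.40 in midkine 3, 4 and 5, and for Eif4g1 to Eif4g2 −1.13, −1.05 and −1.29 in the controls and −1.33, −1.63 and −1.54 in midkine 3, 4 and 5. The first 4 ratios were higher in every midkine library and the last was lower.

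The other 6 ratios overlapped. Eif4e to Eif4ebp1, the cap-binding protein to its inhibitor, had log2 ratios of 2.94, 3.15 and 2.56 in the controls and 2.66, 2.41 and 1.86 in midkine 3, 4 and 5. Eef2 to Eef2k had 6.44, 6.55 and 6.57 in the controls and 6.34, 6.56 and 6.18 in midkine 3, 4 and 5. The mean difference, midkine minus control, was 0.29 for Eif4g1 to Eif4g3, 0.29 for Eif5a to Eif5a2, 0.13 for Eif2s3x to Eif2s3y and 0.0826 for Eif5 to Eif5b. Without midkine 5 the first 3 of these changed sign, to −0.16, −0.23 and −0.17.

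**Figure D4:**
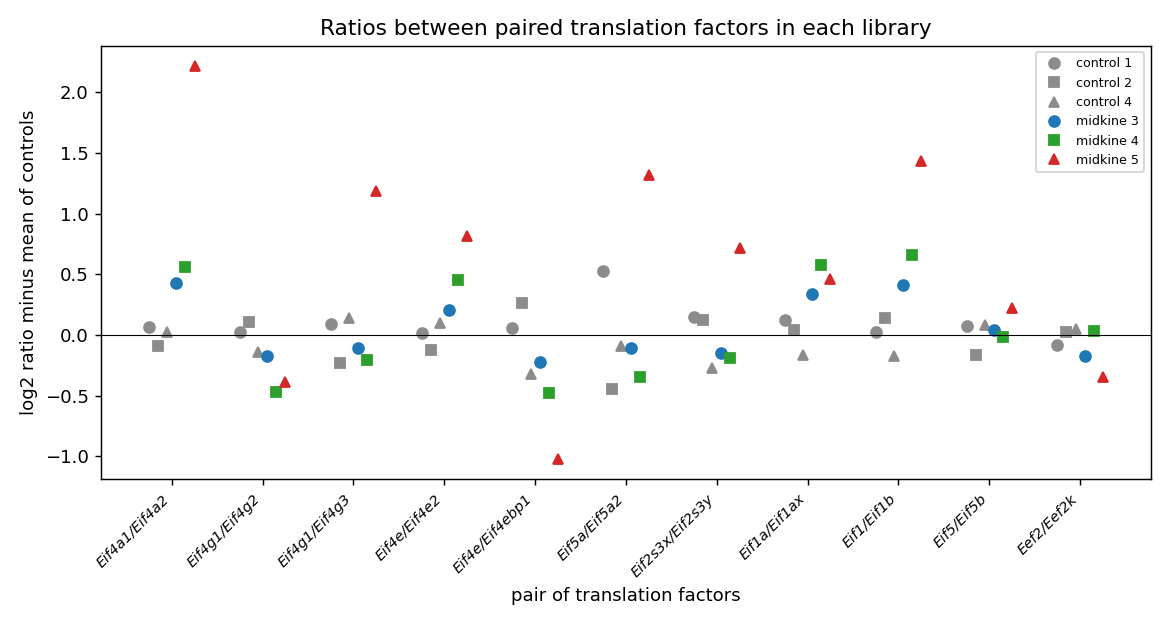
Log2 ratio of 11 pairs of translation factors in each library, minus the mean of the 3 controls (grey, controls; blue, green and red, midkine 3, 4 and 5). Eif4a1/Eif4a2, Eif4e/Eif4e2, Eif1a/Eif1ax and Eif1/Eif1b lie above the controls in all 3 midkine libraries and Eif4g1/Eif4g2 below.

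The genes that regulate these factors or act beside them were counted in 4 lists, in which limma called 0 genes with all 6 libraries, and genes were taken from each by the smallest p. The list of eIF2 kinases and stress response genes had 17 of 18 genes tested and a median log2 fold change of −0.012. Without midkine 5, 2 were called higher (Ppp1r15a and Atf3) and 1 lower (Atf5), or 11.8% and 5.88%, near the 9.92% and 8.52% of all genes. Atf3 lay below every control in midkine 5. Ppp1r15a (GADD34), which directs a phosphatase to eIF2, had 58.5, 67.5 and 58.2 against 102, 102 and 188 normalized counts (log2 fold change 1.02 ± 0.265 SE, adjusted p = 0.118; without midkine 5, 0.73, adjusted p = 0.00787), and its constitutive relative Ppp1r15b 646, 587 and 579 against 713, 746 and 738. Neither gene overlapped between the groups. Cebpg had 497, 538 and 441 against 379.9, 433 and 322, also without overlap, and Eif2ak2, the kinase PKR, 234, 235 and 287 against 189, 248 and 119.8, with overlap.

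The list of mTORC1 and cap control genes had 21 genes tested and a median of 0.00283, and without midkine 5 it had 4 called higher (Mknk2, Deptor, Pdcd4 and Cyfip1) and 1 lower (Rps6ka1). That is 4 of 21 and 1 of 21, where 9.92% and 8.52% of all genes were called. Of the 4 called higher, only Mknk2 also lay above every control in midkine 5, and the other 3 lay below them. Rps6ka1, called lower, lay above every control in midkine 5. Mknk2, a kinase of eIF4E, had 378, 331 and 321 against 438, 508 and 719.8 normalized counts (log2 fold change 0.66 ± 0.205 SE, adjusted p = 0.154; without midkine 5, 0.46, adjusted p = 0.0119). Gigyf2, the partner of 4EHP in repression, had 578, 681 and 586 against 477, 548 and 255. Rps6, the ribosomal protein that S6 kinases phosphorylate, had 1688, 1476 and 1458 against 1285, 1271 and 548. Rps6kb1, one of those kinases, had 531, 508 and 574 against 522, 434 and 317. Gigyf2 and Rps6 did not overlap between the groups and were lowest in midkine 5.

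For termination, recycling and poly(A)-binding factors, 6 of 21 tested genes lay below the controls in every midkine library and 1 above (28.6% and 4.76%, against 15.3% and 15.5% of all genes). The median log2 fold change of the list was 0.018. Without midkine 5, 3 were called lower (Abce1, Pelo and Abcf1) and 1 higher (Ddx3x), or 14.3% and 4.76%, against 8.52% and 9.92% of all genes. Abce1, the ATPase that splits terminated ribosomes, had 518, 487 and 551 against 391, 398 and 346 normalized counts (log2 fold change −0.46 ± 0.144 SE, adjusted p = 0.162; without midkine 5, −0.39, adjusted p = 0.0169). Pelo, which rescues stalled ribosomes, had 664, 569 and 663 against 554, 438 and 473. Abcf1, an ABC protein that binds eIF2 and ribosomes, had 1200.0, 1125 and 1249 against 993, 836 and 1054, and the helicase Dhx9 1397, 1521 and 1506 against 1299, 1217 and 538. These 4 genes were lower in every midkine library.

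The 12 mitochondrial translation factors had a median of −0.14 and 0 calls without midkine 5, where 9.92% of all genes were called higher and 8.52% lower. With all midkine libraries, 1 lay above every control and 2 below (8.33% and 16.7%), against 15.5% and 15.3% of all genes. Mtrf1l, a mitochondrial release factor, had 73.8, 71.6 and 90.7 against 54.1, 60.2 and 56.3 normalized counts, and Gfm2, a factor of mitochondrial ribosome recycling, 194, 215 and 215 against 152, 191 and 159, both without overlap. Tsfm, the exchange factor of mitochondrial elongation, had 40.0, 43.0 and 37.5 against 45.4, 46.4 and 81.7, also without overlap, and Mtif2, a mitochondrial initiation factor, 208, 257 and 222 against 218, 196 and 83.5, with overlap.

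Transcript length was one property along which the members differed in midkine 5. Across the 59 members, the Spearman correlation of the difference from the control mean with the length of the longest annotated transcript was −0.36 in midkine 5, −0.12 in midkine 3 and −0.014 in midkine 4. Over all 13503 tested genes with an annotated transcript it was −0.16, −0.047 and −0.014. With the GC content of the last 300 bases it was 0.25 for the members and 0.21 for all genes in midkine 5. In midkine 3 and 4 it was −0.15 and −0.13 for the members and −0.00090 and −0.074 for all genes. Genes of 1 library share its RNA quality and depth and are not independent, so these values describe that library and carry no test. In midkine 5, the 4 members highest above the control mean, Eif4a1, Eif1, Eif5a and Eef1a1, had longest transcripts of 3167, 1322, 1437 and 1794 bases. The 4 lowest of those tested, Eif4e2, Eif2a, Eif4g3 and Eif3a, had 3473, 3432, 8134 and 5125 bases, and the median of the members was 2726.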

How the data were processed

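Gene-level values from 6 QuantSeq 3′ libraries of cultured mouse bone marrow cells were used. The authors deposited 1 table of normalized counts (signal, at least 0 everywhere). By the submitters' processing notes the tools included HTSeq and DESeq2 with TopHat2 2.0.10, SAMtools 0.1.19, FastQC 0.11.0 and Bowtie 1.0.0, on GRCm38 (mm10). Strand setting, annotation release and handling of multiply mapped reads were not given in the sources used here. Deposited values were multiples of 1 step per library, and 100% of values came out as whole reads within a tolerance of 0.01 reads.

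The test was limma 3.58.1 (eBayes with trend, R 4.3.3) on log2(normalized count + 1), two-sided, for 13543 genes averaging 5 or more, with Benjamini-Hochberg adjustment over those genes at 0.05. The scale understates changes of low genes. edgeR 4.0.16 and DESeq2 1.42.0 were run on the whole reads, and DESeq2 left 3894 genes with an adjusted p of NA. Other settings changed the pseudocount, filter, scaling, library weights or libraries. The scripts were tested on simulated data. Coordinates, lengths and overlaps came from GENCODE M21 (all 60 members matched), promoters from RefSeq (GRCm38.p6). The members and lists were chosen with earlier results of these data known, and the promoter window with the sequences in view. The rule named, in each direction, up to 8 members by smallest p whose groups did not overlap and whose mean reached 20, the highest member of each role, both genes of each pair, and up to 4 genes per other list. Further genes were named after their values were seen. Figures were drawn with matplotlib 3.10.9.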

Additional observations from a re-analysis of the deposited data

How the results depend on the processing

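No paired analysis was possible because the groups share only replicate number 4. All 6 libraries gave 0 calls over all genes with limma, and the setting moved that count. edgeR called 10 genes, DESeq2 684, quantile normalization 16, a pseudocount of 4 10, no filter 9 and array weights 5076. Leaving out 1 library at a time gave 0 to 2497 genes and 0 to 11 translation factors, both highest without midkine 5 and 0 in every other case. edgeR without midkine 5, a setting chosen after the data were seen, called 2508 genes and 11 translation factors. DESeq2 called 2 translation factors, both higher, where it called 3.97% of genes higher and 1.95% lower. Array weights called 22 of the 59 tested, where they called 5076 of all 13543 genes. The median of the mTORC1 list was 0.0659 with edgeR and 0.0712 with DESeq2, and that of the termination list −0.0581 with quantile normalization, −0.0645 with array weights and −0.0664 to 0.0392 with 1 library left out. The members' median was −0.13 to 0.0555 over all settings run. The difference in the share of reads was 0.18 percentage points with all libraries and −0.0717 to 0.31 with 1 left out.

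Of 479 fold changes of the 32 named members under 15 settings, 27 in 11 genes changed sign. With array weights these were −0.47 for Eef2k, −0.27 for Eif2s2, −0.0753 for Eif2s3x, 0.11 for Eif2s3y, −0.18 for Eif4g1, 0.0188 for Eif4g3, 0.0297 for Eif5 and 0.0569 for Eif5b. Eif2s2 had −0.00244 with TMM scaling and −0.12 with quantile normalization, which gave −0.13 for Eif4g1. With 1 library left out, Eif4e ranged from −0.0417 to 0.0295, Eif2s2 −0.23 to 0.15, Eif4g1 −0.19 to 0.11, Eef2k −0.33 to 0.31, Eif2s3y −0.13 to 0.17, Eif4a2 −0.15 to 0.0913, Eef2 −0.40 to 0.0555, Eif5 −0.11 to 0.0410, Eif5b −0.24 to 0.0277. The pair ratios that changed sign ranged from −0.16 to 0.54 (Eif4g1/Eif4g3), −0.23 to 0.61 (Eif5a/Eif5a2) and −0.17 to 0.28 (Eif2s3x/Eif2s3y). The cause of these changes was not tested. With 3 libraries per group and at most 7233960 reads each, a p that misses the threshold does not show that values did not differ.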
